A study of Mus musculus with 200 samples.

Results

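Embryoid bodies are free-floating aggregates of embryonic stem cells that begin to differentiate once the conditions that hold them in the naive state are withdrawn. Wild-type embryoid bodies (labelled EB_WT) were profiled on days 1, 2 and 3, and these 6 libraries, 2 a day, were taken from the 200 mouse libraries of the series by their sample titles. The table that holds them also has 6 libraries of embryoid bodies labelled Zbtb17 KO (EB_ZB11 in the titles) on the same days. Those served to estimate the spread and, at the end, for comparison. The 2 wild-type libraries of day 0 were left out, since only 5970 and 5986 genes reached 1 TPM in them, against 12807 to 13192 on days 1 to 3. The labels' protocols, written for embryos, describe sequencing of amplified full-length cDNA made from polyadenylated RNA of small groups of cells. Whether the embryoid body libraries were made in the same way is not stated. The values are TPM, which correct for gene length and make libraries sum alike but keep no read depth. The depth of these libraries is therefore unknown. The stem cell line, its strain, the medium and whether EB_ZB11 is 1 clone are not given in the sources used here, and the labels' protocols describe embryos only.

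The table has no gene column, so each row took the symbol at the same place in 3 companion tables of equal length and identical order. Against epiblast control libraries of those tables, embryoid body levels correlated across genes at r = 0.886 in this order and at most at r = 0.11 when shifted by up to 5 places. The names used here rest on that match. The 2 libraries of a day correlated at r = 0.9962 to 0.9967 on the log2 scale across genes, and libraries of different days at 0.9561 to 0.9875. Nothing says that the 2 libraries of a day came from separate cultures, although the protocol text speaks of 3 biological replicates per group. P-values here measure only the spread between these libraries, which may be technical. The median residual SD of a gene was 0.0955 on the log2(TPM + 1) scale. Levels below are TPM per library or, where 3 values follow a gene in brackets, the means of days 1, 2 and 3, and ± after a mean is the SD of the 2 libraries (n = 2). The defining markers of pluripotent cells, Pou5f1, Sox2, Dppa4, L1td1 and Utf1, were present in all 6 libraries, the lowest value being 87.3 TPM.

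Leaving the naive state, a stem cell loses the transcription factors of the preimplantation epiblast and passes through a formative state that resembles the epiblast after implantation. Signals of the Nodal, Wnt and FGF families then induce the primitive streak, the source of mesoderm and definitive endoderm, which is marked by the T-box factors T (brachyury) and Eomes. Nodal and Wnt ligands act through Smad and TCF/LEF factors, and their targets include their own inhibitors, the Lefty genes and Axin2.

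Of 13946 genes tested with limma, a linear model with moderated variances, most changed between days. From day 1 to day 2, 4290 genes rose and 3929 fell at a Benjamini-Hochberg adjusted p under 0.05, in all 58.9% of the genes. From day 2 to day 3, 2389 rose and 4079 fell (46.4%). This balance depended on the scale, since after quantile normalization 3021 rose and 3175 fell. Between day 1 and day 3, 70.8% of genes passed. Small changes passed too, and the counts below are, unless stated otherwise, for genes that passed and also changed at least 2-fold on the log2(TPM + 1) scale, which understates the change of low genes. By that rule 893 genes (6.4%) were higher and 961 (6.89%) lower on day 2 than on day 1. Fewer moved at the next step, 172 up (1.23%) and 478 down (3.43%). These counts depended on the scale too: with a pseudocount of 0.1 in place of 1, 1353 genes were at least 2-fold higher on day 2 than on day 1 and 931 at least 2-fold lower on day 3 than on day 2, and after quantile normalization 237 were higher and 359 lower at the second step. Over the whole course 1325 genes (9.5%) ended at least 2-fold higher and 1698 (12.2%) lower, the shares against which list counts between day 1 and day 3 are read. In 2247 of these 3023 genes the step from day 1 to day 2 was the larger. The medians over all tested genes were 0.03, -0.07 and -0.04 for day 2 against day 1, day 3 against day 2 and day 3 against day 1.

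**Figure D1:**
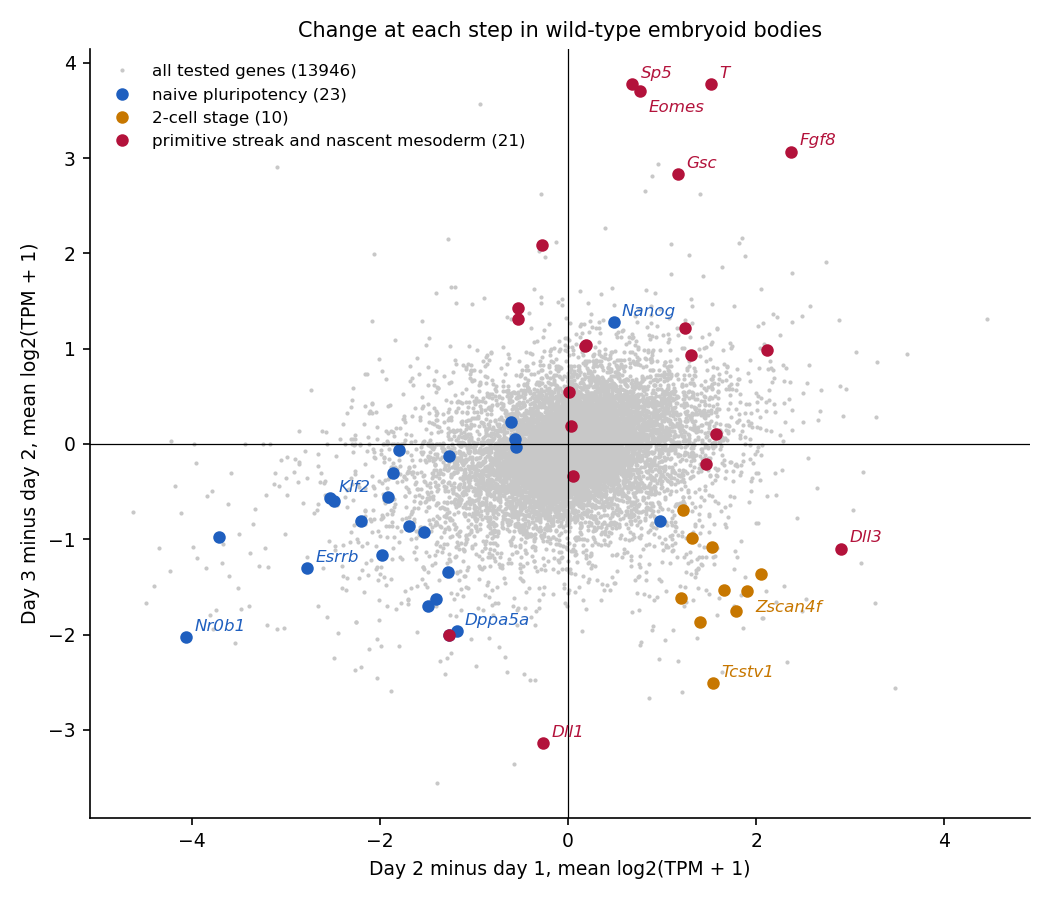
Change of each tested gene from day 1 to day 2 (horizontal axis) and from day 2 to day 3 (vertical axis), as difference in mean log2(TPM + 1), with members of the naive, 2-cell stage and primitive streak lists coloured and some named. Most naive genes lie to the left, 2-cell stage genes to the lower right, and T, Eomes, Fgf8 and Sp5 stand at the top.

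Naive pluripotency genes fell. Of 23 tested members of a list of 24, 18 were at least 2-fold lower on day 2 than on day 1 (6.89% of all tested genes) and 0 higher, with a median log2 change of -1.54. The same number, 18, was at least 2-fold lower on day 3 than on day 1 (median -2.63), against 12.2% of all tested genes. Nr0b1, an orphan nuclear receptor (Dax1), was at 195 and 195 TPM on day 1, 10.9 and 10.7 on day 2 and 1.501 and 2.32 on day 3 (day 2 against day 1: log2 change -4.06 ± 0.10 SE, adjusted p = 2.66e-10). Each day lay below the one before without overlap. Esrrb, a nuclear receptor of the naive network, stood at 61.3 and 64.1 TPM on day 1, 8.03 and 8.56 on day 2 and 2.98 and 2.59 on day 3. Klf2, a Krüppel-like factor, was at 146 and 148 TPM on day 1, 23.9 and 25.1 on day 2 and 16.8 and 15.6 on day 3. Both had lost most of their level by day 2 and fell again by day 3. The lysosomal mannosidase Manba was at 113 ± 0.556 TPM on day 1, 7.69 ± 0.381 on day 2 and 3.43 ± 0.517 on day 3. The zinc finger factor Zfp42 or Rex1 (73.0, 29.4 and 10.97 TPM), the ligand Fgf4 (115, 47.4 and 11.05) and the cell surface protein Pecam1 (29.4, 9.78 and 2.31) fell at both steps. So did the Krüppel-like factors Klf4 (12.3, 3.17 and 1.26) and Klf5 (52.2, 13.6 and 10.9) and the homeobox factor Gbx2 (87.5, 32.4 and 9.82). Dppa5a, an RNA-binding protein and the most abundant of the list, fell at both steps too (4152, 1824 and 467 TPM). The RNA of Tdh, the threonine dehydrogenase that mouse stem cells depend on, fell from 211 ± 5.27 to 37.4 ± 2.91 TPM. In a pool of cells, fewer cells of a type and less RNA per cell cannot be told apart.

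One naive factor ended higher. Nanog, a homeodomain factor present in the naive epiblast and again in the posterior epiblast at the streak, was at 81.6 and 80.0 TPM on day 1, 118 and 109 on day 2 and 287 and 268 on day 3 (day 3 against day 1: log2 change 1.77 ± 0.05 SE, adjusted p = 2.06e-10). Its day 3 libraries were above all earlier ones. Dppa3 (Stella) rose and then fell (5.50, 11.7 and 6.25 TPM), and its difference between days 3 and 1 did not pass (adjusted p = 0.255).

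Of the core pluripotency factors, 9 of 16 were at least 2-fold lower and 0 higher on day 3 than on day 1 (median -1.33), against 12.2% and 9.5% of all tested genes. Pou5f1 (Oct4) was at 2336 and 2443 TPM on day 1, 1819 and 1786 on day 2 and 1809 and 1972 on day 3. It fell from day 1 to day 2 and did not pass from day 2 to day 3 (adjusted p = 0.181). Sox2, its partner, was at 338 and 328 TPM on day 1, 177 and 169.5 on day 2 and 91.7 and 93.4 on day 3 and lost level at each step. Utf1, Dppa4 and Gdf3 declined from 1096 ± 0.357, 296 ± 0.0266 and 112 ± 6.31 TPM on day 1 to 420.3 ± 18.0, 91.0 ± 5.31 and 26.4 ± 1.29 TPM on day 3. Lin28a, which blocks let-7 maturation, rose instead, from 175 ± 0.208 to 307 ± 19.4 TPM.

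Markers of fibroblasts, which serve as feeder cells for stem cells in many laboratories, fell in the same libraries as the naive genes. Of 14 tested, 11 were at least 2-fold lower and 1 higher on day 3 than on day 1 (12.2% and 9.5% of all tested genes), the latter Tagln. Their summed level was 475 to 479 TPM on day 1, 206 to 213 on day 2 and 196 to 199 on day 3. Among them were the collagens Col1a1 (62.8, 13.9 and 5.44 TPM) and Col1a2 (50.7, 13.1 and 5.07) and the matrix protein Mgp (224, 98.0 and 37.8), while the level of day 3 was mostly Tagln. Thy1 (29.2, 31.0 and 26.4 TPM) did not pass between days 3 and 1 (adjusted p = 0.0664), and Lum was below 1 TPM on each day. The use of feeders is not given in the sources used here. The part of these markers in the falls of naive and mesenchymal genes was not tested. Of blood markers, Ptprc, Lyz2 and Tyrobp had means below 1 TPM on each day, and the lysosomal protein Cd68 fell (69.1, 12.5 and 8.27 TPM).

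Formative and primed epiblast genes moved in both directions. Of 24 tested, 9 were at least 2-fold higher and 4 lower on day 2 than on day 1 (median 0.70), against 6.4% and 6.89% of all tested genes. Fgf5, a growth factor that marks the formative epiblast, was at 18.6 and 19.8 TPM on day 1, 60.9 and 60.3 on day 2 and 102 and 101 on day 3. Otx2, a homeobox factor that directs the formative state, was at 48.7 and 47.0 TPM on day 1, 62.4 and 63.3 on day 2 and 92.0 and 85.6 on day 3. Both rose at each step, Otx2 by less than 2-fold in all (log2 change 0.88 ± 0.06). Dnmt3b, a de novo DNA methyltransferase, was at 430.3 and 441 TPM on day 1, 1024 and 1039 on day 2 and 956 and 984 on day 3. It rose to day 2 and fell slightly to day 3. The let-7 inhibitor Lin28b (4.28, 18.4 and 19.4 TPM), the zinc finger factors Sall2 (19.4, 52.9 and 48.6) and Zic2 (71.2, 158 and 152) and the kinase Pim2 (195, 788 and 1012) also rose by at least 2-fold to day 2. The factors Pou3f1 or Oct6 (202, 331 and 122 TPM) and Sox3 (34.0, 84.9 and 38.1) rose to day 2 and fell to day 3. Tcf15, Grhl2, Etv4 and Lef1 of the same list were at least 2-fold lower on day 2 than on day 1. Tcf15, a bHLH factor, was at 152, 51.5 and 20.4 TPM over the 3 days, and Grhl2, a factor of epithelial enhancers, 45.9, 18.2 and 10.7 TPM.

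**Figure D2:**
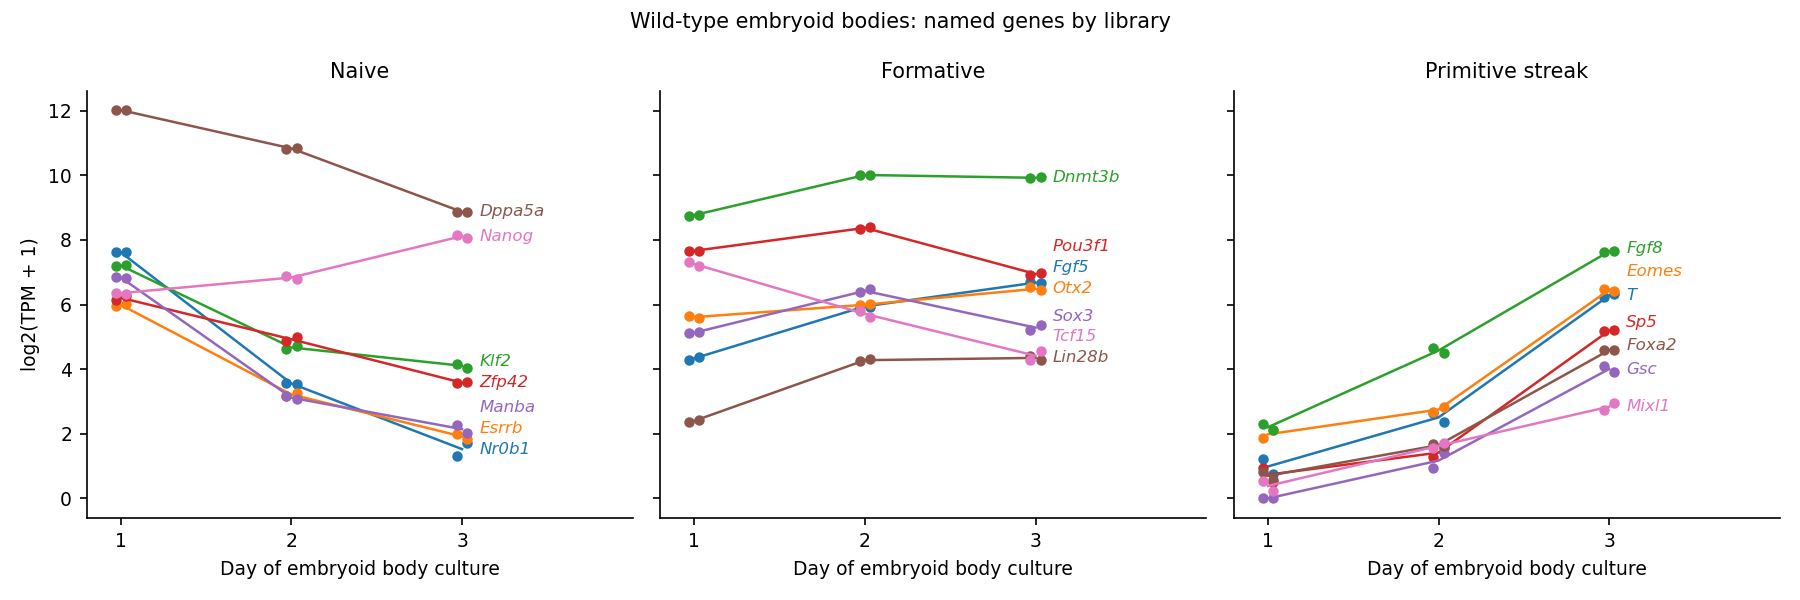
Log2(TPM + 1) of named genes in each wild-type library on days 1, 2 and 3, in 3 panels for naive, formative and primitive streak genes. Points are libraries (2 a day) and lines join the day means, with naive genes falling except Nanog and streak genes rising mostly between day 2 and day 3.

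Most primitive streak genes rose. Between day 1 and day 3, 14 of 21 tested genes were at least 2-fold higher and 2 lower (9.5% and 12.2% of all tested genes). Of 21 tested members of 24, 9 were at least 2-fold higher and 1 lower on day 2 than on day 1 (6.4% and 6.89% of all tested genes). From day 2 to day 3 a 2-fold rise was seen in 11 and a 2-fold fall in 3, Dll1, Dll3 and Fgf4 (1.23% and 3.43% of all tested genes), with a median log2 change of 1.03. T (chr17:8434423-8442496 on mm10, GENCODE vM21) was at 1.34 and 0.683 TPM on day 1, 5.30 and 4.13 on day 2 and 75.0 and 78.6 on day 3 (day 3 against day 2: log2 change 3.77 ± 0.16 SE, adjusted p = 4.39e-08). Eomes was at 2.63 and 3.30 TPM on day 1, 5.33 and 6.16 on day 2 and 88.1 and 85.2 on day 3. Fgf8, the FGF ligand of the streak, was at 3.88 and 3.34 TPM on day 1, 24.0 and 21.8 on day 2 and 196 and 203 on day 3. The day 3 libraries of these 3 genes were above both earlier days, with no overlap. Sp5, a direct target of Wnt signalling, was at 0.934 and 0.428 TPM on day 1, 1.43 and 1.93 on day 2 and 35.1 and 36.1 on day 3. Foxa2, a forkhead factor of the anterior streak, was at 0.763 and 0.494 TPM on day 1, 2.196 and 2.08 on day 2 and 23.2 and 23.0 on day 3. Goosecoid (Gsc), its neighbour in the anterior streak, was listed at 0 in both day 1 libraries and reached 15.1 ± 1.40 TPM on day 3. Mixl1, Evx1 and Wnt3 had means on day 3 of 6.18 ± 0.713, 4.57 ± 0.215 and 16.4 ± 0.773 TPM. Evx1 and Gsc reached 1 TPM in 2 libraries only with those of day 3. The filter thus favoured their rise in the counts of this list.

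Mesp1, Wnt3a and Msgn1, of nascent and presomitic mesoderm, did not reach 1 TPM in 2 libraries and were not tested, and Msgn1 was listed at 0 in all 6. Tbx6 was at 1.55, 1.59 and 1.96 TPM and did not pass (day 3 against day 1: adjusted p = 0.29). Of 14 tested genes of later mesoderm and blood vessels, 0 were at least 2-fold higher and 5 lower on day 3 than on day 1. Of all tested genes, 9.5% were higher and 12.2% lower by that rule. Kdr, the VEGF receptor of early mesoderm, was at 2.21, 1.88 and 1.66 TPM (adjusted p = 0.118). Dll1, a Notch ligand of presomitic mesoderm, fell from 20.5 ± 0.149 TPM on day 2 to 1.45 ± 0.364 on day 3, while its relative Dll3 rose to 46.9 ± 2.51 TPM on day 2 and fell to 21.4 ± 0.304 on day 3.

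By correlation over the 6 libraries, the genes most like T among those with a log2 range of at least 3 were Foxa2 (r = 0.9983), Fst (r = 0.9950), Rtl8c (r = 0.9937), Tagln (r = 0.9929) and Gsc (r = 0.9901). The points share libraries and table, and the ranking describes these 6 libraries only. Rtl8c is a retrotransposon-derived gene, Tagln an actin-binding protein of smooth muscle and Fst (follistatin) an extracellular inhibitor of activin. Fst was at 10.4 and 10.4 TPM on day 1, 23.1 and 23.8 on day 2 and 102 and 106 on day 3. Tagln was at 5.06 and 5.95 TPM on day 1, 16.8 and 15.5 on day 2 and 100.1 and 109 on day 3. The day 3 libraries were highest for both.

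The promoters of T and Sp5, which are known targets of Wnt signalling, are shown. Both genes rose from day 2 to day 3, and both promoters held the motif searched for. They are the 250 bases before the gene start in RefSeq on GRCm38.p6, the assembly named mm10, for T at chr17:8434173-8434422 and for Sp5 at chr2:70474673-70474922, both on the plus strand. Capitals mark the TCF/LEF core, searched as CTTTGAT or CTTTGAA on both strands.
T: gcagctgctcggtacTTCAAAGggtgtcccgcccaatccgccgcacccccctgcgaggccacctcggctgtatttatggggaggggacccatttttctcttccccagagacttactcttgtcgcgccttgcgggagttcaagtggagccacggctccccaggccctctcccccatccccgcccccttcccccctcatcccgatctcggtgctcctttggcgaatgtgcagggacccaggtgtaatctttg
Sp5: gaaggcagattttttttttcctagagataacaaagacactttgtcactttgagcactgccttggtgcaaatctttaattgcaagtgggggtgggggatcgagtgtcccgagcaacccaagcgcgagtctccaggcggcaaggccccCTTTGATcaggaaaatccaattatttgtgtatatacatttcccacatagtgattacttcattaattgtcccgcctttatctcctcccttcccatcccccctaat
Each window held 1 match. Of all 32851 windows of that length in the RefSeq table, 7.48% held one. Of the 11 streak genes that rose at least 2-fold from day 2 to day 3, 6 had a window in the table and 2 a match, T and Sp5. The windows shown are thus those with a match and do not stand for the list. Of the 6 genes of the Wnt list that rose so, 4 had a window and 3 a match, Sp5, Wnt11 and Wnt5b. A match describes letters in a window and was not tested for binding.

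Several Wnt ligands rose over the course. Wnt8a was at 18.6 and 23.0 TPM on day 1, 59.6 and 62.6 on day 2 and 120.1 and 135 on day 3. Wnt3 (1.02, 7.80 and 16.4 TPM), Wnt5b (0.778, 2.92 and 8.14) and Wnt11 (0.865, 0.527 and 8.37) were each at least 2-fold higher on day 3 than on day 1, and Wnt5a (3.64, 1.000 and 0.828) was lower. Other genes of the pathway, Axin2, Porcn and Lef1, were lowest on day 2. Axin2, a feedback inhibitor and common reporter of the pathway, was at 27.2 and 27.1 TPM on day 1, 9.12 and 10.2 on day 2 and 29.6 and 32.2 on day 3. It fell (log2 change -1.40 ± 0.07, adjusted p = 6.82e-08) and rose again (1.58 ± 0.07, adjusted p = 8.06e-08), and days 3 and 1 did not differ by the test (adjusted p = 0.0529). Porcn, the acyltransferase that Wnt ligands need for secretion, followed the same course at 20.8 and 22.5 TPM on day 1, 4.53 and 4.32 on day 2 and 20.0 and 21.1 on day 3. Lef1, a Wnt effector, fell from 53.9 ± 0.794 to 11.5 ± 1.67 TPM and rose to 19.6 ± 0.327. Notum, a secreted Wnt deacylase, fell from 43.8 ± 1.93 TPM on day 1 to 1.84 ± 0.191 on day 2. It stayed low at 1.91 ± 0.827 on day 3 (day 3 against day 2: adjusted p = 0.985). Over the whole list, 6 of 19 were at least 2-fold higher and 0 lower on day 3 than on day 2 (median 0.51), against 1.23% and 3.43% of all tested genes. From day 1 to day 2, 5 were at least 2-fold higher and 4 lower (6.4% and 6.89% of all tested genes). Over the whole course 8 were higher and 3 lower (9.5% and 12.2% of all tested genes), the last Wnt5a, Lef1 and Notum.

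A fall followed by a rise, as in Axin2 and Porcn, was the rarest of 4 patterns, at 389 genes (2.79%). With at least 2-fold at both steps it was 14 (0.1%), or 35 with a pseudocount of 0.1. Named by the rule for this pattern were the neurofilament genes Nefl (44.0, 17.5 and 80.8 TPM) and Nefm (17.8, 7.19 and 24.5). So were the lymphotoxin gene Ltb (1.15, 0.0949 and 12.1 TPM), the cell cycle regulator Sfn (57.9, 24.8 and 71.1), the chromatin protein Hmga2 (35.5, 11.8 and 25.3), Psors1c2 (31.9, 12.8 and 42.5), Myadm (74.2, 37.3 and 75.1) and the row listed as Mir6935 (22.1, 10.2 and 30.1). Nefl lies within the span of Nefm on the other strand of chromosome 14, so their separate levels are uncertain. Genes that rose at both steps numbered 1229 (8.81%) and those that fell at both 1780 (12.8%). At least 2-fold at both steps were 53 (0.38%) and 164 (1.18%) of these, or 91 and 364 with a pseudocount of 0.1. With either day 2 library left out, genes that rose at both steps numbered 794 and 803.

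The opposite pattern, a peak on day 2, held 884 genes (6.34%), and 563 or 579 without replicate 1 or 2 of day 2. With at least 2-fold at both steps it held 76 (0.545%), or 121 with a pseudocount of 0.1. It included the genes of the 2-cell stage program, which a small share of stem cells expresses at any time. All 10 tested members of a list of 12 were at least 2-fold higher on day 2 than on day 1 (6.4% of all tested genes, list median 1.54). Of them, 8 were at least 2-fold lower on day 3 than on day 2 (3.43% of all tested genes, list median -1.54). Near-identical Zscan4 copies are among these members, so the counts do not rest on separate signals. Zscan4f, of a family that guards telomeres, was at 16.2 and 15.7 TPM on day 1, 64.4 and 60.8 on day 2 and 22.2 and 19.5 on day 3. Zscan4c was at 12.7 and 12.2 TPM on day 1, 43.4 and 39.6 on day 2 and 14.1 and 13.3 on day 3. Both day 2 libraries exceeded all others for each gene. Dux, the factor that activates the program, was low, at 0.599 and 0.784 TPM on day 1, 3.22 and 2.57 on day 2 and 0.169 and 0.367 on day 3. It reached 1 TPM only on day 2 and so passed the filter through those libraries, which favoured its peak. Tcstv1 (3.20, 11.2 and 1.14 TPM), of the list, and Usp17le (3.75, 21.0 and 6.06) and Pramef25 (3.16, 16.4 and 3.902), outside it, had the same course. Other genes with a day 2 peak were the insulin receptor substrate Irs4 (3.121, 16.03 and 5.68 TPM) and Btbd17 (3.71, 13.7 and 1.78).

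The Zscan4 genes lie in 1 cluster of near-identical copies on chromosome 7, so reads could be split between them and their separate levels are uncertain. The likeness shows in the RefSeq promoter windows of Zscan4c (chr7:11005495-11005744) and Zscan4f (chr7:11397665-11397914), both on the plus strand of GRCm38.p6, where capitals mark TATAAAAG on the strand of the gene.
Zscan4c: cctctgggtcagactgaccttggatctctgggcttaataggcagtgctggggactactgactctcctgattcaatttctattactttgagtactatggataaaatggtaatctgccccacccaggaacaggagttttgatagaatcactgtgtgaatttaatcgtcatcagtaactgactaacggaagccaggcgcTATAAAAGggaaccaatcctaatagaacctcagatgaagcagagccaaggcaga
Zscan4f: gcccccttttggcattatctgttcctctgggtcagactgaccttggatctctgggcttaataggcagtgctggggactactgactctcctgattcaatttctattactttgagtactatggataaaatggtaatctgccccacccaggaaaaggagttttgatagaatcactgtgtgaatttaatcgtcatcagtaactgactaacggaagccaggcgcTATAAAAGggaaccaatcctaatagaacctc
The longest run of identical bases shared by these windows was 127, the most of 6 pairs among the 4 Zscan4 genes with a window (Zscan4b, c, d and f). The other 5 pairs shared runs of 50 to 86. TATAAAAG occurred in 1.06% of all windows of that length.

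**Figure D3:**
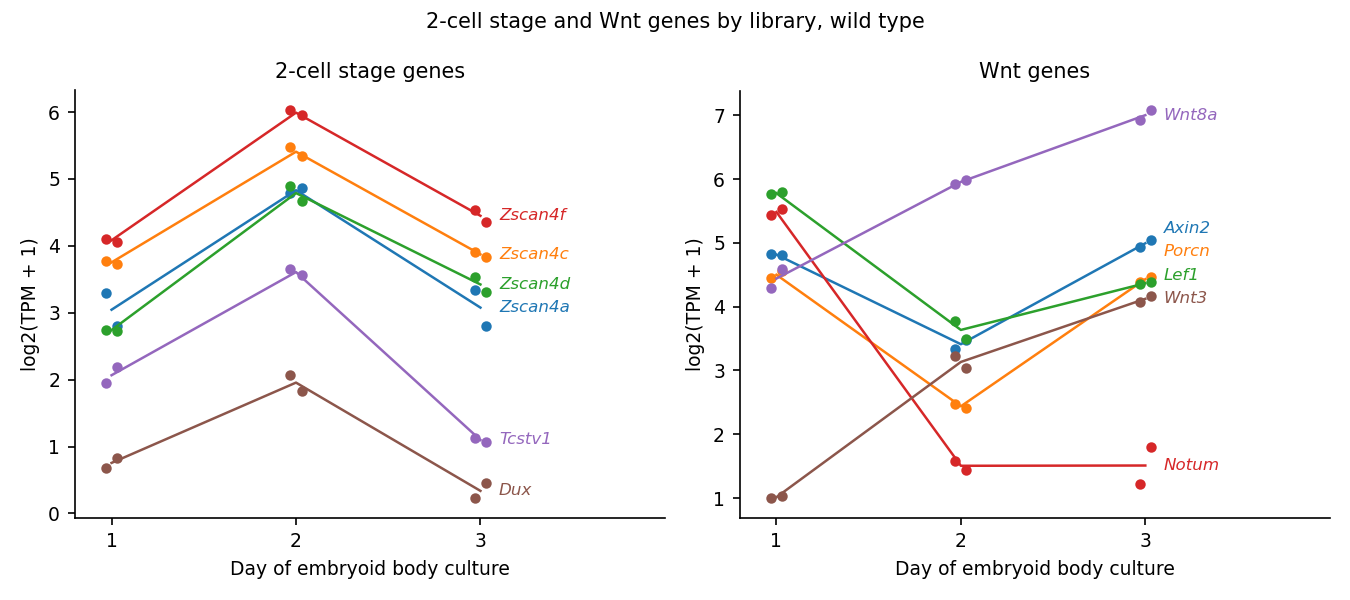
Log2(TPM + 1) in each wild-type library of genes highest on day 2 (left, 2-cell stage genes) and of Wnt genes, among them Axin2 and Porcn that were lowest on day 2 (right). Points are the 2 libraries of a day and lines join the day means.

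In the Nodal pathway the ligand Nodal was at 143 and 138 TPM on day 1, 149.5 and 142 on day 2 and 149 and 167 on day 3 (day 3 against day 1: log2 change 0.16 ± 0.05, adjusted p = 0.0175). Lefty1, a secreted Nodal antagonist, was at 72.3 and 69.1 TPM on day 1, 617 and 627 on day 2 and 260.3 and 263 on day 3. Lefty2, its close paralog, was at 20.5 and 18.5 TPM on day 1, 63.9 and 60.5 on day 2 and 38.0 and 37.8 on day 3. Both peaked on day 2, and since they are near-identical copies the split between them is uncertain. The co-receptor Cfc1 rose at both steps, to 4.43 ± 0.819 TPM on day 3. The co-receptor Tdgf1 (Cripto) and the DNA-binding partner Foxh1 rose by less than 2-fold, to 889 ± 71.0 and 181 ± 9.82 TPM on day 3 from 725 ± 19.8 and 114 ± 3.38 on day 1. From day 1 to day 3, 5 of 19 members rose at least 2-fold and 3 fell (9.5% and 12.2% of all tested genes). The list median was 0.59.

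FGF ligands moved in both directions. Fgf4, the ligand of the naive epiblast, fell at both steps to a mean of 11.05 ± 0.950 TPM, while Fgf5 and Fgf8 rose to 102 ± 0.812 and 199 ± 4.68 TPM. Feedback genes of ERK signalling declined, Dusp4 from 61.6 ± 1.51 to 22.4 ± 1.02 TPM, Spry4 from 64.7 ± 2.34 to 22.7 ± 2.10 and Etv4 from 149 ± 4.54 to 46.8 ± 0.783. Over the list, 2 of 21 (9.52%) were at least 2-fold higher and 5 (23.8%) lower on day 3 than on day 1. The share that rose was no larger than the 9.5% of all tested genes, of which 12.2% were lower. Of BMP genes, 2 of 19 were at least 2-fold higher and 3 lower, shares near the 9.5% and 12.2% of all tested genes. Id1, a BMP target, fell from 144 ± 2.96 to 68.5 ± 1.40 TPM and Id3 rose from 116 ± 4.59 to 171 ± 15.9. On day 3 against day 1, 9.5% of all tested genes were at least 2-fold higher and 12.2% lower. Of retinoic acid and posterior genes, 6 of 16 were higher and 4 lower by that rule. Among them the enzymes Cyp26a1 and Dhrs3 rose to 5.27 ± 1.34 and 16.7 ± 0.110 TPM, and the homeobox gene Hoxb1 to 4.95 ± 0.605. The retinoic acid receptor Rarg fell from 289.5 ± 4.73 to 92.4 ± 3.73 TPM, and the low genes Aldh1a2 (3.37, 1.75 and 1.02 TPM), which makes retinoic acid, and Cdx4 (3.92, 1.86 and 0.829) fell too.

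The largest rise by day 2 among the genes named by the rule was that of Trh, which encodes thyrotropin-releasing hormone, a peptide hormone also transcribed in the anterior streak and node. It was at 28.0 and 31.2 TPM on day 1, 681 and 660.4 on day 2 and 1663 and 1667 on day 3 (day 2 against day 1: log2 change 4.46 ± 0.05, adjusted p = 7.27e-13). Several epithelial genes rose to day 2 as well. These were the tight junction genes Cldn6 (43.9, 219 and 389 TPM) and Cldn7 (4.11, 48.9 and 90.0), the keratins Krt8 (8.78, 28.3 and 67.1) and Krt18 (15.4, 37.0 and 75.1) and E-cadherin or Cdh1 (137, 254 and 237). Mesenchymal genes of the same list fell: vimentin (Vim) from 276 ± 3.92 to 71.1 ± 3.92 TPM, fibronectin (Fn1) from 311 ± 3.82 to 56.2 ± 0.700, Snai2 from 4.26 ± 0.186 to 0.335 ± 0.0830 and Zeb1 from 8.90 ± 0.142 to 0.897 ± 0.109. Of all 19 tested members, 5 were at least 2-fold higher and 4 lower on day 3 than on day 1. The shares of all tested genes were 9.5% and 12.2%. Snai1, which drives the epithelial to mesenchymal transition at the streak, rose from 11.7 ± 0.307 on day 2 to 17.7 ± 3.64 on day 3 (adjusted p = 0.00403). The lipid carrier Fabp5 (8.62, 92.3 and 113 TPM), the tubulin Tubb4a (1.04, 23.8 and 46.9), the kinesin Kif1a (2.18, 23.7 and 35.7), the planar polarity gene Prickle1 (2.51, 25.0 and 38.4), Pdlim3 (2.09, 22.5 and 27.7) and the noncoding RNA Miat (0.922, 14.7 and 8.71) were also among the 12 largest rises to day 2.

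Endoderm markers moved in both directions. Gata6, a factor of primitive endoderm, the first endoderm of the embryo, was at 14.4 and 15.1 TPM on day 1, 2.47 and 2.18 on day 2 and 0.825 and 0.947 on day 3, and Sox17 fell to day 2 (3.81, 1.45 and 0.880 TPM). Some genes of visceral endoderm, which absorbs and secretes, rose. The endocytic adaptor Dab2 was at 3.01 and 2.45 TPM on day 1, 32.5 and 31.2 on day 2 and 23.3 and 28.5 on day 3. Amn and Cubn, which form the cubam receptor, went from 0.848 ± 0.156 and 1.79 ± 0.137 TPM on day 1 to 9.83 ± 0.105 and 14.0 ± 0.428 on day 2. On day 3 they were at 8.75 ± 0.384 and 7.76 ± 0.200 TPM. Cubn thus fell from day 2 (log2 change -0.78 ± 0.11 SE, adjusted p = 0.000214), and Amn did not pass (adjusted p = 0.524). The serum proteins Ttr and Apoa1 rose to 15.95 ± 1.38 and 11.7 ± 0.310 TPM on day 3, and the protease inhibitor Spink1 to 50.4 ± 11.9, while Afp stayed below 1 TPM. From day 1 to day 3, 7 of 23 primitive endoderm genes rose at least 2-fold and 7 fell (9.5% and 12.2% of all genes). The list median was -0.10. Of trophectoderm markers, Elf5, Tpbpa and Prl3d1 were listed at 0 in all 6 libraries. The list of 18 had 14 tested members, 2 at least 2-fold higher and 5 lower on day 3 than on day 1. For all tested genes the shares were 9.5% and 12.2%. The summed level of the list was 293.8 to 300.5 TPM on day 1, 176.4 to 181.9 on day 2 and 101.6 to 102.5 on day 3. The neuroectoderm factors Sox1 (7.11, 4.66 and 1.31 TPM) and Pax6 (1.90, 2.19 and 1.13) fell between day 2 and day 3. The RNA-binding protein Msi1 and the filament nestin (Nes) of that list rose, to 67.2 ± 1.28 and 27.04 ± 0.235 TPM from 11.7 ± 0.994 and 5.69 ± 0.532.

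**Figure D4:**
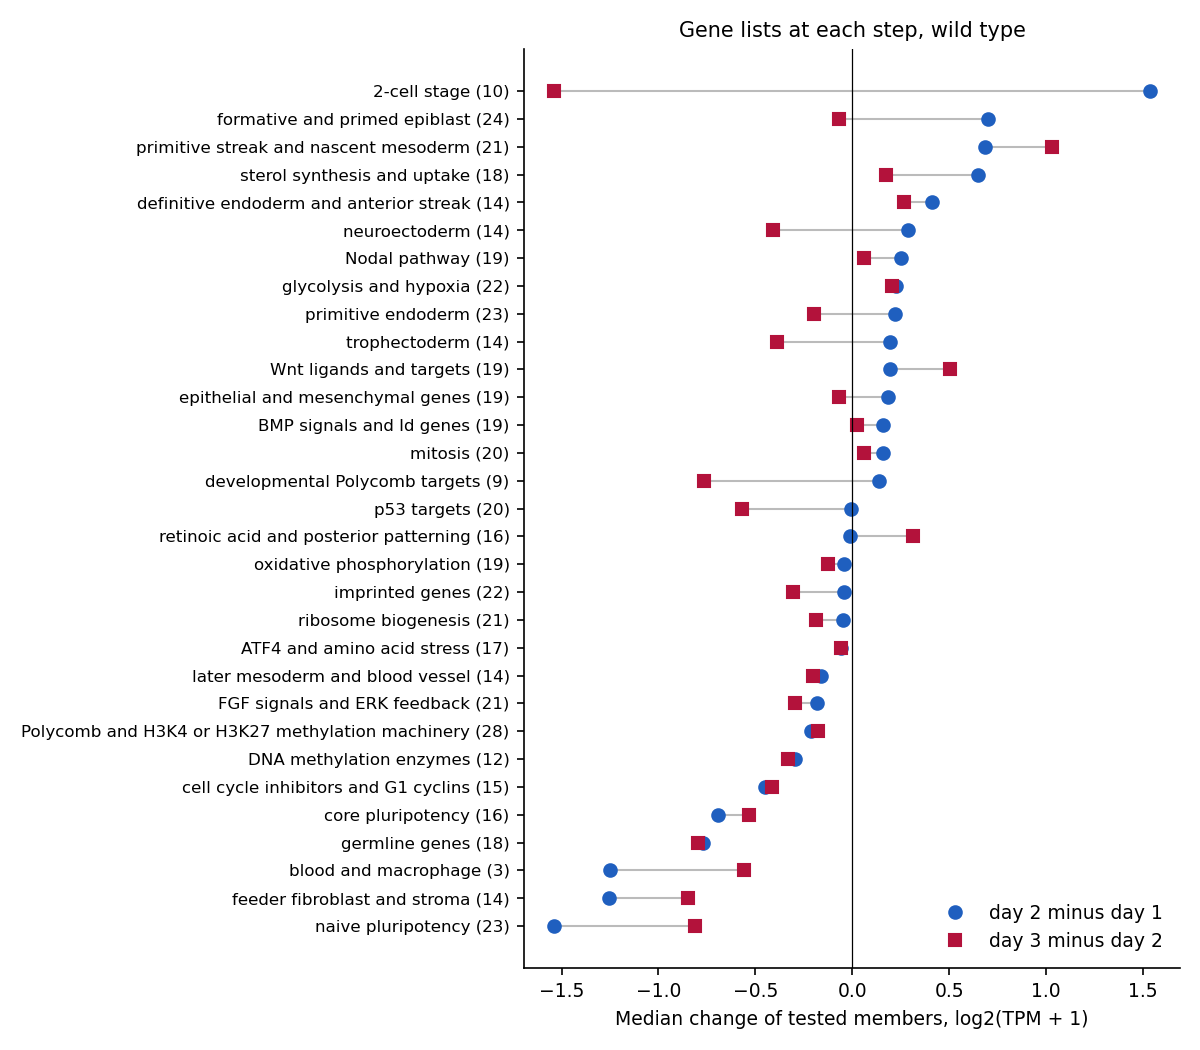
Median log2 change of each gene list from day 1 to day 2 (circles) and from day 2 to day 3 (squares), with the number of tested members in brackets. The naive and fibroblast lists lie farthest left at the first step, and the 2-cell stage list lies right at the first step and left at the second.

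The largest falls by day 2 reached beyond the named lists. Septin1, a filament-forming GTPase, was at 404 and 437 TPM on day 1, 19.097 and 16.4 on day 2 and 4.72 and 5.02 on day 3 (day 2 against day 1: log2 change -4.49 ± 0.07, adjusted p = 2.10e-11). It had the largest fall of the genes named by the rule. Others among the 12 largest falls to day 2 were H2-M5, a class I histocompatibility gene (76.9, 2.80 and 0.806 TPM), Arl14epl (84.5, 3.52 and 0.813), Aire, the autoimmune regulator (109, 6.77 and 2.10) and the muscle fusion peptide gene Mymx (74.1, 3.85 and 1.12). Between day 1 and day 3 the hypoxia factor Epas1 (135, 8.89 and 1.59 TPM), the apolipoprotein Apoc2 (91.3, 6.05 and 1.05) and the germ cell chromatin protein Morc1 (75.8, 7.34 and 1.23) joined them. Aire overlaps the more abundant Dnmt3l on the other strand of chromosome 10, so its separate level is uncertain. Between day 2 and day 3 the largest falls of the genes named by the rule were in Gadd45g, a stress and differentiation gene (176 and 172 TPM on day 1, 65.4 and 65.3 on day 2 and 5.802 and 3.68 on day 3), and Insm1, a zinc finger factor (38.5, 25.5 and 1.60 TPM), followed by Dll1 and Tcstv1, and the 12 largest also held Galnt6 (54.2, 12.4 and 1.45), Arl4d (61.7, 39.1 and 6.64) and the ribosomal protein paralog Rpl39l (256, 52.3 and 9.28).

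Among DNA methylation genes, 1 of 12 was at least 2-fold higher and 4 were lower on day 3 than on day 1. Over all tested genes the shares were 9.5% and 12.2%. Dnmt3l, a catalytically inactive cofactor of the de novo enzymes, was at 1329.8 and 1379.9 TPM on day 1, 294 and 290.4 on day 2 and 54.6 and 59.5 on day 3. Dnmt3a fell from 214 ± 1.79 to 58.8 ± 0.780 TPM while Dnmt3b rose, and the demethylating dioxygenases Tet1 and Tet2 fell from 78.2 ± 2.54 and 22.5 ± 1.19 to 15.97 ± 0.951 and 1.76 ± 0.0389. The maintenance enzyme Dnmt1 (151, 125 and 110.5 TPM) and its partner Uhrf1 (339, 230.0 and 189) fell by less than 2-fold. Of germline genes, 12 of 18 were at least 2-fold lower and 2 higher (median -1.52), against 12.2% and 9.5% of all tested genes. Stk31, a kinase-like protein of germ cells (6.78, 1.83 and 0.506 TPM), the meiotic protein Hormad1 (24.3, 3.25 and 0.227) and the RNA-binding protein Dazl (11.7, 2.70 and 0.615) fell. The synaptonemal protein Sycp3 (0.932, 6.79 and 6.55) and the piRNA factor Tdrkh (2.32, 6.42 and 7.39) rose.

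Most Polycomb and trithorax machinery genes fell, though seldom by 2-fold: 22 of 28 passed as lower and 3 as higher on day 3 than on day 1, against 38.4% and 32.4% of all genes (median -0.43). Jarid2 and Epop, accessory subunits of Polycomb repressive complex 2 in stem cells, both fell. Jarid2 was at 212 and 208 TPM on day 1, 76.7 and 76.8 on day 2 and 60.1 and 61.5 on day 3. Epop was at 409.6 and 415 TPM on day 1, 121 and 116 on day 2 and 101 and 102 on day 3. The catalytic subunit Ezh2 (93.8, 83.2 and 91.0 TPM) did not pass between days 3 and 1 (adjusted p = 0.516). Ash2l, a subunit of H3K4 methyltransferases, fell from 272 ± 8.41 to 65.2 ± 5.25 TPM, and the histone-binding protein Rbbp7 rose from 211 ± 4.92 to 465 ± 35.5. Kdm6a and Kdm6b, the H3K27 demethylases, fell from 23.7 ± 0.546 and 41.7 ± 0.786 to 16.4 ± 1.23 and 28.4 ± 2.42 TPM. Of 20 developmental Polycomb targets, 9 could be tested. On day 3 against day 1, 0 were at least 2-fold higher and 4 lower (9.5% and 12.2% of all tested genes). Among the lower genes were Hoxc6, Nkx2-9 and Wt1, the last from 72.8 ± 1.499 to 8.23 ± 1.24 TPM.

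All 18 tested sterol genes passed as higher on day 2 than on day 1 (30.8% of all genes), with a median log2 change of 0.65. Hmgcs1, an early enzyme of the pathway, was at 81.8 and 78.6 TPM on day 1, 134 and 133 on day 2 and 188 and 188 on day 3. In the glycolysis and hypoxia list 8 of 22 were at least 2-fold higher and 1 lower on day 3 than on day 1. These counts stand against 9.5% and 12.2% of all tested genes. The enzymes Tpi1, Pgk1 and Ldha rose from 285 ± 14.6, 401 ± 0.871 and 1220.0 ± 42.8 TPM to 1037 ± 57.4, 1182 ± 32.2 and 2866 ± 39.7, and the glucose transporter Slc2a1 from 179 ± 2.80 to 449 ± 26.9. Of oxidative phosphorylation, ribosome biogenesis and mitosis genes, none of the 19, 21 and 20 tested members changed by 2-fold between days 1 and 3, and the medians were -0.20, -0.24 and 0.15. The ATF4 stress list had 3 of 17 higher and 1 lower by 2-fold, against 9.5% and 12.2% of all tested genes.

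Of cell cycle inhibitors and G1 regulators, 2 of 15 were at least 2-fold higher and 7 lower on day 3 than on day 1. The shares over all tested genes were 9.5% and 12.2%. Ccnd3 and Ccne1, G1 cyclins, fell from 349 ± 3.82 and 434 ± 2.19 TPM on day 1 to 80.2 ± 2.16 and 221 ± 0.201 on day 2. Myc, a growth-promoting factor, was at 162 and 169 TPM on day 1, 85.9 and 76.4 on day 2 and 52.9 and 53.9 on day 3 and fell at both steps, while Mycl rose from 15.4 ± 0.418 to 44.8 ± 0.136 TPM and the inhibitor Cdkn1b from 10.0 ± 0.138 to 34.4 ± 0.594. Targets of p53 fell to day 3, with 17 of 20 passing as lower and 1 as higher from day 2 to day 3 (29.2% and 17.1% of all genes). Mdm2, which degrades p53, was at 156 and 150.3 TPM on day 1, 119 and 120.2 on day 2 and 50.2 and 46.6 on day 3, and Cdkn1a (p21) at 104 and 106 TPM on day 1, 108 and 104 on day 2 and 63.7 and 62.6 on day 3. Zbtb17 itself, the gene targeted in the knockout libraries, was at 20.8 and 23.4 TPM on day 1, 21.0 and 22.7 on day 2 and 17.3 and 18.0 on day 3. It did not pass from day 1 to day 2 (adjusted p = 0.923) and fell by day 3 (log2 change -0.29 ± 0.08, adjusted p = 0.0122).

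Among imprinted genes, the maternally expressed RNAs Meg3 (205, 573 and 484 TPM), Rian (112, 347 and 360.2) and Mirg (48.3, 129 and 163), which lie together on chromosome 12, were at least 2-fold higher on day 3 than on day 1. The paternally expressed Peg3 (233, 120.4 and 44.6) and Peg10 (244, 124 and 65.3) fell. In all, 6 of 22 tested imprinted genes were at least 2-fold higher and 4 lower, against 9.5% and 12.2% of all tested genes.

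The row listed as Mir367 was among the 12 largest rises from day 2 to day 3, at 1.60 and 0.863 TPM on day 1, 3.55 and 2.28 on day 2 and 29.7 and 18.5 on day 3. The other precursors of the same cluster on chromosome 3 were looked up after that value was seen. Mir302a (0.725, 1.61 and 9.07 TPM), Mir302b (0, 1.49 and 5.798), Mir302c (0.245, 1.74 and 8.14) and Mir302d (0, 2.75 and 13.5) also rose from day 2 to day 3. Precursor rows are short, so few reads can give such values once corrected for length, and the number of reads is unknown. The 2 Mir367 libraries of day 3 differed widely (29.7 and 18.5 TPM). The same limit holds for the row listed as Mir6935. If polyadenylated RNA was sequenced, as the protocols describe for embryos, rows for precursors count the primary transcript and not the mature microRNAs. That transcript can be shared along the cluster. The mature 3' arms are shown because the locus encodes microRNAs with different seeds. They are RefSeq sequences from the plus strand of chromosome 3 (GRCm38.p6), with bases 2 to 8 in capitals, and miR-302a is named only.
mmu-miR-302b-3p: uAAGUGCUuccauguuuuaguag
mmu-miR-302d-3p: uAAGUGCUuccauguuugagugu
mmu-miR-302c-3p: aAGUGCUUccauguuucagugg
mmu-miR-367-3p: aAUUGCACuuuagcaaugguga
The first and second shared their seed, the third began 1 base later in the same stretch, and the fourth had a different seed.

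The Zbtb17 KO embryoid bodies were profiled on the same days, and the comparison of the genotypes shares no library between them. Zbtb17 itself was lower in them, at 10.1 and 9.89 TPM on day 1, 12.6 and 14.1 on day 2 and 13.7 and 13.4 on day 3, and which part of the gene was deleted is not given in the sources used here. The change from day 1 to day 3 differed between the genotypes by an interaction term in 5926 tested genes (42.5%), and by at least 2-fold in 1467 (10.5%). Genes were filtered by their level in wild type alone, so a gene expressed only in the knockout could not enter these counts. Of the streak list, the change was at least 2-fold more downward in the knockout for 12 of 21 (5.13% of all genes) and more upward for 1. T reached 76.8 ± 2.51 TPM in wild type and 10.7 ± 0.977 in the knockout on day 3 (interaction log2 -2.28 ± 0.23, adjusted p = 2.50e-05). Eomes reached 86.7 ± 2.02 and 9.48 ± 0.598 TPM, and Foxa2 23.1 ± 0.156 and 1.17 ± 0.0353. Of the naive list, the change was at least 2-fold more upward in the knockout for 19 of 23 (5.39%) and more downward for 1, Nanog. Klf2 ended at 16.2 ± 0.889 TPM in wild type and 169.7 ± 2.25 in the knockout, and Zfp42 at 10.97 ± 0.128 and 207 ± 0.350. For 2-cell stage genes a more upward change of at least 2-fold held in 9 of 10 (5.39% of all genes), near-identical Zscan4 copies among them. Zscan4f was at 20.9 ± 1.91 TPM in wild type and 102 ± 2.14 in the knockout on day 3. Fibroblast markers moved alongside, with an at least 2-fold more upward change in the knockout in 12 of 14 (5.39% of all genes). A more downward change of that size was seen in 1 (5.13%). Col1a1, among the 12, was at 5.44 ± 0.634 TPM in wild type and 40.9 ± 1.49 in the knockout on day 3. The part of fibroblast markers in the genotype differences was not tested.

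**Figure D5:**
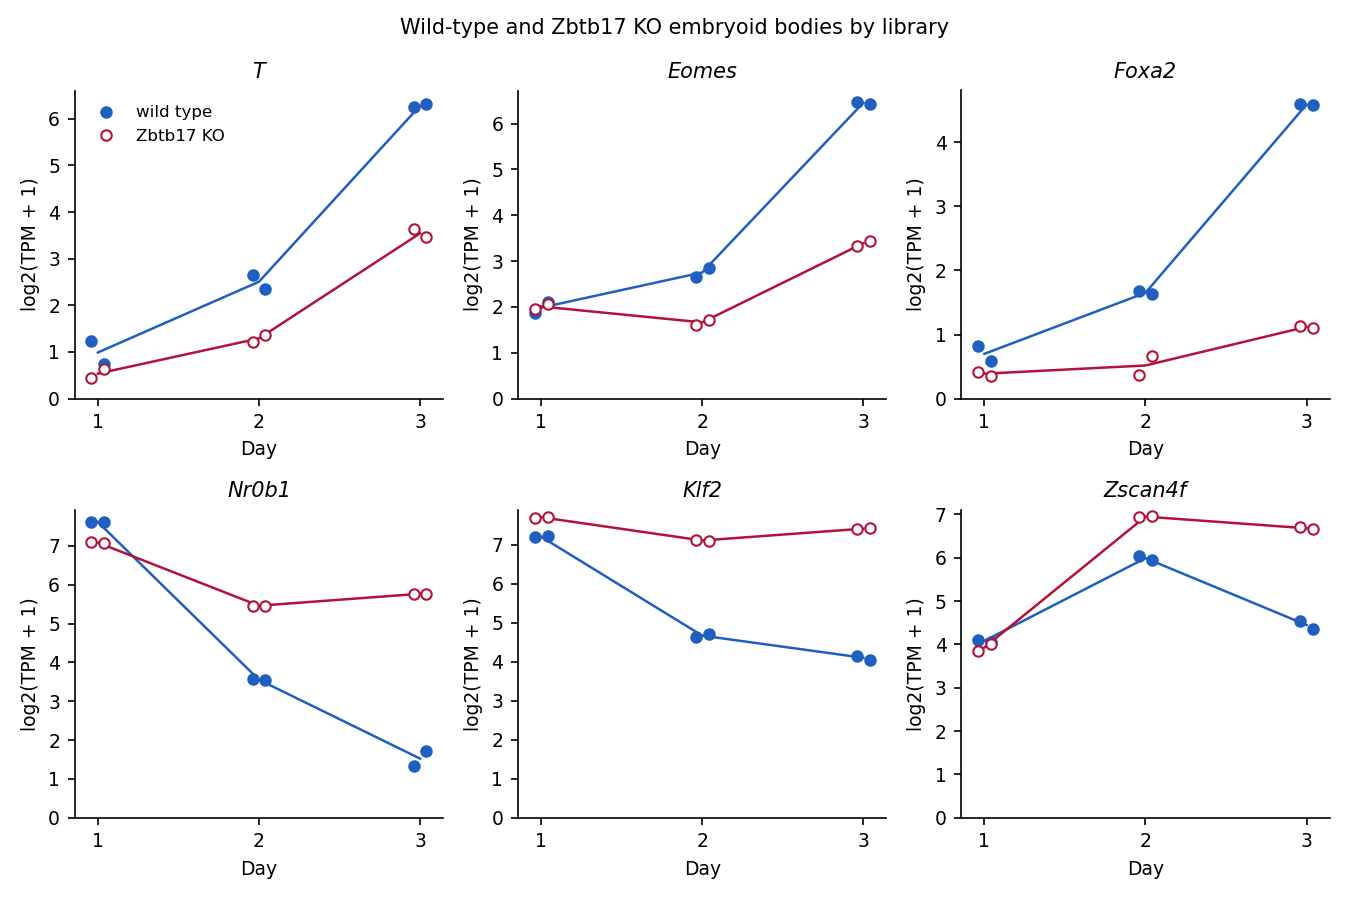
Log2(TPM + 1) of 6 genes in wild-type (filled) and Zbtb17 KO (open) embryoid body libraries on days 1, 2 and 3, with lines through the day means of the 2 libraries. T, Eomes and Foxa2 rose higher in wild type by day 3, and Nr0b1, Klf2 and Zscan4f ended lower in wild type.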

How the data were processed

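Expression was taken from the deposited embryoid body table, whose values are TPM made by the authors. Per the submitters' processing notes the tools were HISAT2 2.2.1, StringTie 2.2.1 and Cufflinks with the mm10 genome, and their roles are not given in the sources used here. The table has 25006 rows and no gene column, so symbols came from the row order of 3 companion tables. Libraries were grouped by their titles.

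TPM were transformed to log2(TPM + 1). Genes with at least 1 TPM in 2 of the 6 wild-type libraries were tested with limma 3.58.1 (R 4.3.3), with a variance that followed the mean, over 12 libraries in 6 groups with 6 residual degrees of freedom and Benjamini-Hochberg adjustment. The fit was tested on simulated data. Genes were named as the 12 largest rises and falls of each comparison (no overlap, at least 10 TPM, no predicted genes), the 10 clearest peaks and troughs, members of 31 lists, Zbtb17 and the 5 genes most like T, and the text gives a selection of these. Members and lists were chosen with earlier results of these data known. Alternatives changed the pseudocount, filter, scaling, libraries, weights, minimum fold and replicate block. Figures were drawn with matplotlib 3.10.9.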

Additional observations from a re-analysis of the deposited data

Results flagged for a closer look

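The change from day 1 to day 3 differed between wild-type and Zbtb17 KO embryoid bodies by the interaction term of the limma fit (adjusted p under 0.05), in 5926 of 13946 genes. The genes tested were filtered by their wild-type levels alone. As log2 differences, knockout change minus wild-type change, T was at -2.28 ± 0.23 SE, Eomes at -3.09 ± 0.15, Foxa2 at -3.16 ± 0.20 and Nanog at -1.22 ± 0.07, so each of these changes was smaller in the knockout. The difference was positive for the naive genes Klf2 (2.81 ± 0.07) and Zfp42 (3.45 ± 0.08), for Zscan4f of the 2-cell stage list (2.38 ± 0.10) and for the collagen gene Col1a1 (2.83 ± 0.09). These genes were chosen for the text with their values known.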

How the results depend on the processing

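The named genes gave 505 calls with the settings of the report. Over 8305 pairs of a gene comparison and an alternative, called or not, 8002 kept their side of the threshold. Direction was compared only in pairs called with the report's settings or with the alternative. Of all pairs, 275 lost a call (149 of them with the 2-fold minimum), 27 gained one and 1 changed sign. The last was Notum from day 2 to day 3, with a log2 change of -0.29 without replicate 2 of day 3 and 0.298 without replicate 1. It did not pass with all libraries.

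With a minimum of 2-fold added to the adjusted p, the genes higher and lower numbered 893 and 961 from day 1 to day 2, 172 and 478 from day 2 to day 3 and 1325 and 1698 from day 1 to day 3. By pattern they numbered 53 that rose at both steps, 164 that fell at both, 76 that rose then fell and 14 that fell then rose, and the genotypes differed in 1467. With a pseudocount of 0.1 in place of 1, genes at least 2-fold higher on day 2 than on day 1 numbered 1353 and those 2-fold lower on day 3 than on day 2 931, while the patterns held 91, 364, 121 and 35 genes in the same order. Low genes gain from the smaller pseudocount by construction.

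Leaving out each library in turn gave 794 to 1079 genes that rose at both steps and 563 to 776 that rose then fell, the lowest without a day 2 library. Quantile normalization turned the sign of list medians for neuroectoderm and ATF4 stress (day 3 against day 1), epithelial and mesenchymal genes (day 3 against day 2), and p53 targets, ATF4 stress and oxidative phosphorylation (day 2 against day 1), all near 0.

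The replicate numbers of the labels were also fitted as a block. With the replicate block, 4270 and 3931 genes were higher and lower from day 1 to day 2, 2400 and 4057 from day 2 to day 3 and 4527 and 5348 from day 1 to day 3. Differences between the 2 libraries of a day correlated across genes at 0.012, 0.004 and 0.042 between days. No difference shared by replicate number was seen. Whether same-numbered libraries come from 1 culture cannot be told from this, since technical repeats would also give values near 0. With TPM alone the read depth is unknown, so how far it limits low genes such as Mixl1 or Dux could not be computed.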
